A study of Mus musculus with 6 samples.

Results

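Astrocyte marker genes were followed in brain messenger RNA of Mettl5-/- and wild-type mice. The set held 32 genes of the 18491 in the deposited table, each found by an exact match of its symbol, and all 32 passed the filter of a mean of at least 1 FPKM (read fragments corrected for transcript length and for the library's mapped total). Brains came from C57BL/6N mice, an inbred laboratory strain, at postnatal day 28. The groups were 3 homozygous knockout samples (Mettl5-/-) and 3 wild-type samples. Mettl5 encodes the methyltransferase that places N6-methyladenosine on the RNA of the small ribosomal subunit. No treatment is given for either group, and the labels state neither which part of Mettl5 was removed nor whether each library came from a separate animal. The p-values therefore rest on the spread among the samples alone, and part of that spread may be technical.

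Astrocytes are the glia that surround synapses and blood vessels. They clear glutamate and potassium, pass water and metabolites through channels and gap junctions, and supply lipoproteins and glutamine to neurons. After injury or inflammation they become reactive, a state marked by more of the intermediate filament proteins GFAP and vimentin and of secreted acute-phase proteins. The 32 genes were split into 28 homeostatic markers, which resting astrocytes express, and 4 reactive markers, Gfap, Vim, Nes and Serpina3n. A broader reactive group, given below, also holds Chil1 and Clu, which count as homeostatic in this split. Several of the 32 are shared with other cells: Vim also marks endothelium and ependyma, Apoe and Clu are made by other cells too, and Glul is present in oligodendrocytes. In bulk tissue, fewer astrocytes and less RNA per astrocyte cannot be told apart.

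Summed FPKM per library ran from 350727 to 377334, and between 16615 and 16794 genes had a value above 0. FPKM values hold no read totals, so the depth is unknown and no counting interval is given. Mettl5 itself had 2.79, 3.81 and 2.40 FPKM in knockout libraries 1, 2 and 3, against 4.78, 5.16 and 5.92 FPKM in wild-type libraries 1, 2 and 3. The transcript was thus lower in every knockout library but still present, at 56.7% of the wild-type mean (2-sided exact permutation p = 0.1, the smallest that 3 against 3 allows; adjusted p = 0.79 in limma). Markers of neurons were abundant in all 6 libraries, as the tissue label says, with Snap25 between 1188 and 1418 FPKM. Libraries also stood apart in regional or other glial markers. Knockout library 2 had a summed 419 FPKM over 6 cerebellar granule cell markers, against 40.5 to 108 FPKM in the other 5 libraries. Knockout library 3 had 2092 FPKM over 10 oligodendrocyte markers and 38.9 FPKM over 7 thalamic neuron markers, the lowest of the 6 in both. Wild-type library 2 was the highest in striatal neuron markers, with a median of 1.08 above the wild-type mean on the log2(FPKM + 1) scale.

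The 250 bases upstream of the RefSeq gene start (GRCm38.p6, the assembly that mm10 names) are shown for 5 markers. These were chosen by their values, since all their knockout values lay below the wild-type values. A separation of the genotypes was also found for 11.9% of all genes (6.43% lower in the knockout). None of the 5 markers passed adjustment in limma. Each sequence is written 5′ to 3′ on the gene's own strand, and capitals mark a match to one of 4 motifs searched on both strands. The regions are chr11:102897201-102897450 on the minus strand for Gfap, chr1:134181906-134182155 on the plus strand for Chil1, chr4:136143572-136143821 on the plus strand for Id3, chr12:16653220-16653469 on the plus strand for Ntsr2 and chr10:56377050-56377299 on the plus strand for Gja1. The start used was not always the gene start. The Ntsr2 window runs past the gene start at 16653443. Among windows not shown, those of Aldh1l1, Gpc5, Itih3 and Serpina3n also run past the gene start. Those of Hepacam, Apoe, Slc4a4, Slc1a2, Mlc1 and Slc7a10 lie inside their genes, as do some of the windows of Aldoc, Fgfr3 and Ndrg2.
Gfap: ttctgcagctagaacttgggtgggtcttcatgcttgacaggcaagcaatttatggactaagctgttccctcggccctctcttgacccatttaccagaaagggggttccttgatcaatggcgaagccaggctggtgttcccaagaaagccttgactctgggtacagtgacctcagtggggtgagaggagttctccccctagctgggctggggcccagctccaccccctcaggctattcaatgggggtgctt
Chil1: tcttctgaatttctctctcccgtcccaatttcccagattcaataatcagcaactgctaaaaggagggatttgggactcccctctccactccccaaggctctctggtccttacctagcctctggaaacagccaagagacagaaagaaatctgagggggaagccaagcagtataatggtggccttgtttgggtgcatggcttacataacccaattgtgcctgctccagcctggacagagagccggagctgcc
Id3: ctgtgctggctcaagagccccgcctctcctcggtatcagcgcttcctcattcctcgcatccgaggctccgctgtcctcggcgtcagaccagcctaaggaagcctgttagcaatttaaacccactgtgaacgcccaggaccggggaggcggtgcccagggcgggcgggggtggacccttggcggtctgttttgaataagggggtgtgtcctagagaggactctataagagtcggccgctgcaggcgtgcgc
Ntsr2: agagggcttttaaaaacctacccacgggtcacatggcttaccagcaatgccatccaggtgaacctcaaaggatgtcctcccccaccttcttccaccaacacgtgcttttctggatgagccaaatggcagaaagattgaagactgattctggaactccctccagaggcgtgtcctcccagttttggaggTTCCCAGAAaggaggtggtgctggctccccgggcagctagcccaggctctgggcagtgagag
Gja1: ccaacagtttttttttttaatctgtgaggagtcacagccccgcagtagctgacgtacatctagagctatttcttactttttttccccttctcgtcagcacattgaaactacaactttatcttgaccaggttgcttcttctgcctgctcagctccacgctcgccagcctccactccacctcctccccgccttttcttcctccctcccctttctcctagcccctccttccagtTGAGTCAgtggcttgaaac

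The motifs were TTCNNNGAA (STAT), TTGGCA (an NFI half-site), TGANTCA (AP-1) and AACAAT (SOX), and no window shown held more than 1 match. Windows were used for 25 of the 32 markers, which gave 32 windows. Marker windows on chromosome 18 (Aqp4 and Slc14a1) were left out, a limit not set on the full set of windows. None was found for Sparcl1, Clu, Chrdl1, Sox9 and Atp1b2. The 2 matches in the windows shown were a STAT match in Ntsr2 and an AP-1 match in Gja1. Among all 32851 upstream windows of the table, 7.02% held a STAT match, 12.3% the NFI half-site, 6.75% an AP-1 match and 9.42% the SOX letters. Of the 32 marker windows, 3 held a STAT match, 3 the NFI half-site, 2 an AP-1 match and 0 the SOX letters. Base composition differed more between the windows shown: Id3 had 62.8% G and C with 18 CpG, whereas Gfap had 55.6% with 2 CpG and Chil1 51.6% with 2 CpG. No motif of the 4 was found in all 5 windows.

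The comparison asked whether the astrocyte markers, homeostatic and reactive, differed in the knockout from the wild type. Gfap, Chil1, Id3, Ntsr2 and Gja1 were lower in the knockout with no overlap between the genotypes, with knockout means between 48.2% and 84.8% of the wild-type means. Slc7a10 and Aqp4 were lower within each same-numbered pair of libraries, and Slc1a3 was higher within each pair. Most other markers, among them the most abundant ones Apoe, Sparcl1, Glul and Clu, had knockout means within 10% of the wild-type mean. None of the 32 differences passed the test over all genes (limma on log2(FPKM + 1), Benjamini-Hochberg adjusted over 12885 genes, adjusted p from 0.79 to 0.998), and no gene of the table did (0% called, 0 genes). An unadjusted p under 0.05 was found for 6 of the 32 markers, all lower, against 3.69% of all genes lower and 2.37% higher (6.05% in either direction). The 5 markers without overlap compare with 11.9% of all genes (6.43% lower and 5.48% higher). After scaling every library to the same total, 4 were without overlap, because Ntsr2 then overlapped. Over all 32 the median log2 fold change was -0.079, with 23 negative and 9 positive, against a median of -0.0032 and 50.9% negative over all genes. Leaving out either knockout library 3 or wild-type library 2, 3 markers in place of 6 were below an unadjusted p of 0.05, while the share of all genes below it was 5.18% without knockout library 3 and 2.44% without wild-type library 2. The count without overlap was 8 without knockout library 1 (19.4% of all genes), 11 without knockout library 2 (25.4%) and 6 without knockout library 3 (21.3%). It was 9 when wild-type library 1 was left out (26.8%), 6 when wild-type library 2 was (16.3%) and 8 when wild-type library 3 was (24.5%).

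**Figure D1:**
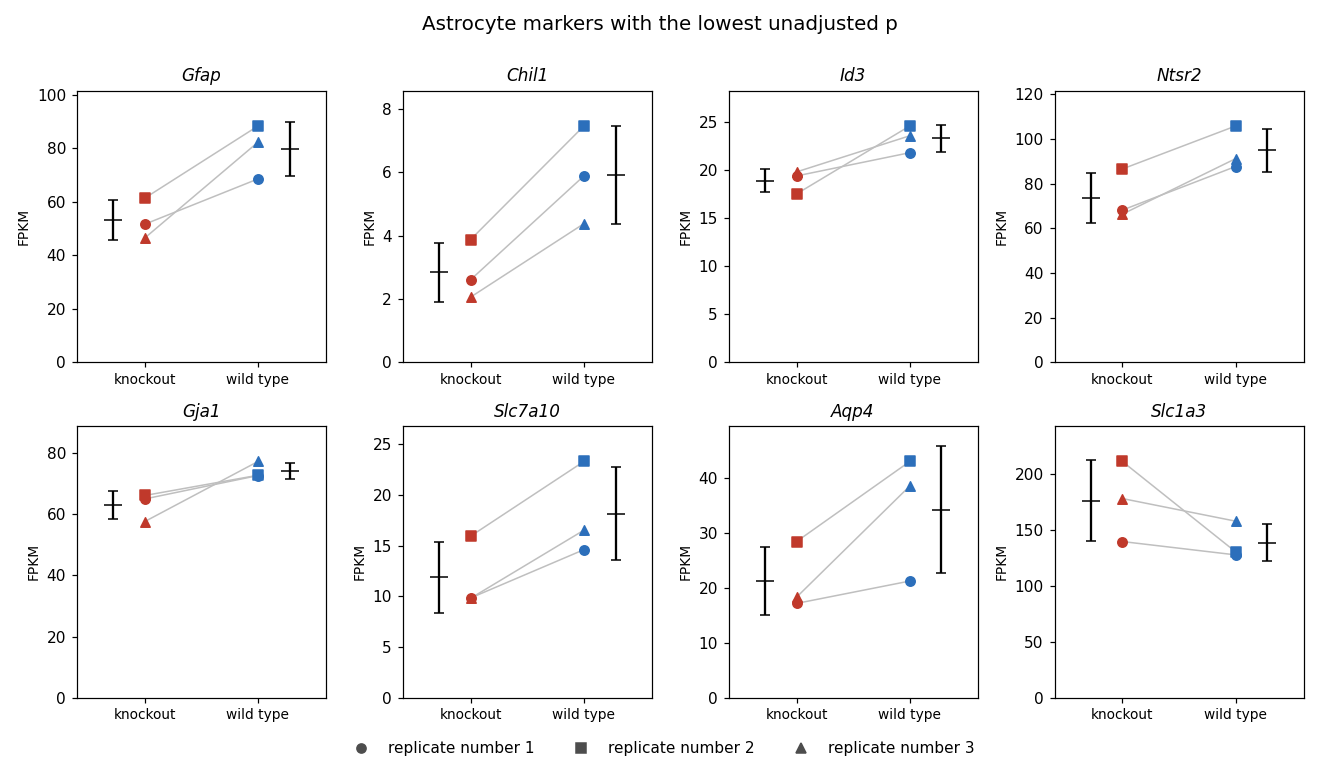
FPKM of the 8 astrocyte markers with the lowest unadjusted p, with the 3 knockout libraries left of the 3 wild-type libraries in each panel; grey lines join libraries with the same replicate number and black bars show the mean ± SD (n = 3 each). Gfap, Chil1, Id3, Ntsr2 and Gja1 do not overlap between genotypes, Slc7a10 and Aqp4 overlap but lie lower in every joined pair, and Slc1a3 lies higher in every joined pair.

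The replicate numbers in the sample titles paired the libraries in the data: libraries of the same number deviated together from their group means. Of the 32 markers, 12 were lower in the knockout within all 3 pairs and 2 were higher, against 20.5% and 19.5% of all genes. With the replicate number as a block in limma, the unadjusted p of 9 markers was under 0.05 (8 lower and 1 higher), against 14.3% of all genes (8.22% lower and 6.08% higher). Beside the 6 markers above these were Aqp4, Ppp1r3c and Slc1a3. No marker passed after adjustment (adjusted p from 0.285 to 0.989 with the block), and 0 of all genes did (0% called).

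Among the intermediate filaments, Gfap, the main filament protein of astrocytes (gene ID 14580; chromosome 11), had 51.6, 61.4 and 46.5 FPKM in knockout libraries 1, 2 and 3, against 68.6, 88.3 and 82.3 FPKM in wild-type libraries 1, 2 and 3. Every knockout value lay below every wild-type value. The means were 53.1 ± 7.6 FPKM in the knockout and 79.7 ± 10 FPKM in the wild type (SD, n = 3 each), a knockout share of 66.7%. The log2 fold change was -0.58 (SE 0.14; 95% confidence interval -0.89 to -0.26; adjusted p = 0.79, limma). The table counts 2 Gfap transcripts together, so its isoforms were not separated. Vim, the vimentin gene, had 23.4, 29.7 and 18 FPKM in the knockout libraries and 22.8, 23.9 and 20.3 FPKM in the wild-type libraries. The Vim values overlapped, and both the highest and the lowest came from knockout libraries. Nes, the nestin gene of neural progenitors and of some reactive astrocytes, was low throughout, with 1.73, 1.39 and 1.23 FPKM in the knockout and 1.89, 1.76 and 1.53 FPKM in the wild type. Nes overlapped between genotypes but was lower within each pair, with a log2 fold change of -0.16 (95% confidence interval -0.46 to 0.15). That value was -0.24 without knockout library 1, -0.092 without knockout library 3, -0.079 with array weights and -0.24 with a pseudocount of 0.1.

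The remaining reactive marker, Serpina3n, encodes a secreted protease inhibitor. It had 20.8, 15.0 and 15.6 FPKM in knockout libraries 1, 2 and 3, against 22.1, 15.6 and 16.2 FPKM in wild-type libraries 1, 2 and 3. Both libraries numbered 1 were high and the other 4 were close together, so the genotypes overlapped (log2 fold change -0.062; 95% confidence interval -0.45 to 0.33). Serpina3n belongs to a cluster of closely similar genes in the mouse, among which reads may be divided with error. Among the 4 reactive markers, Gfap alone had an unadjusted p below 0.05.

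Taken by state, the median log2 fold change was -0.11 for the 4 reactive markers (3 negative, 1 positive) and -0.079 for the 28 homeostatic markers (20 negative, 8 positive), beside -0.0032 over all genes. The homeostatic median minus the reactive median was 0.030. Per library, the same difference of medians (each gene's log2(FPKM + 1) minus its wild-type mean) was -0.22, 0.24 and 0.039 in knockout libraries 1, 2 and 3, against -0.066, -0.011 and 0.082 in the wild-type libraries. The knockout values lay on both sides of the wild-type ones, so no shift from homeostatic to reactive markers or the reverse was seen in every knockout library. With Chil1 and Clu moved to the reactive group (6 genes), its median was again -0.11 and the difference again 0.030. Chil1 (log2 fold change -0.85) and Clu (0.05) lie on either side of both medians, so moving this pair could not change them. In the broader reactive group 2 genes, Gfap and Chil1, had an unadjusted p under 0.05 in limma (6.05% of all genes). The same 2 had no overlap (11.9% of all genes). The homeostatic median was -0.20 without knockout library 2 and -0.042 without knockout library 3. The reactive median was -0.22 without knockout library 1 and -0.049 without knockout library 3. It was -0.020 when wild-type library 1 was left out, -0.17 when wild-type library 3 was, and -0.0079 with array weights. The homeostatic minus reactive difference was negative without knockout library 2 (-0.075), without wild-type library 1 (-0.076) and with array weights (-0.089).

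**Figure D2:**
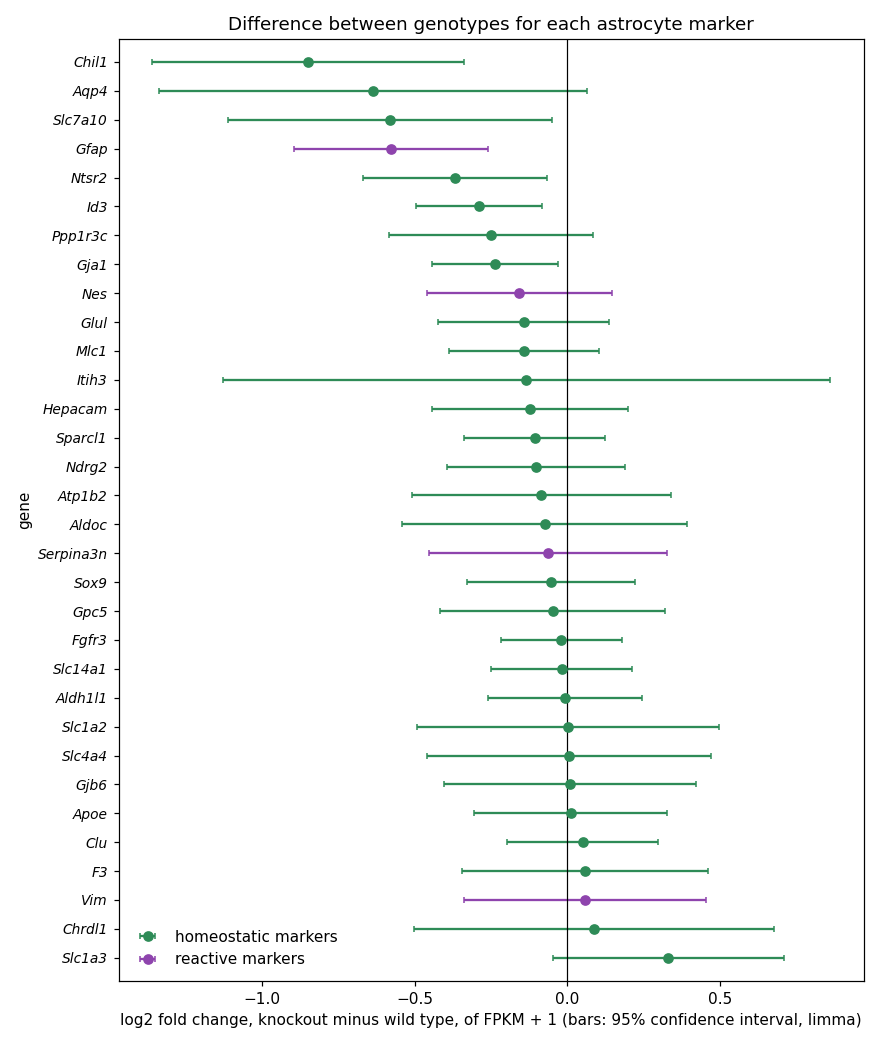
Log2 fold change (knockout minus wild type, on the log2(FPKM + 1) scale) of each of the 32 astrocyte markers, with homeostatic and reactive markers in 2 colours and bars for the 95% confidence interval from limma. Intervals of 6 markers exclude 0, all on the lower side, and Gfap is the only 1 of the 4 reactive markers among them.

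Secreted and cell-surface proteins held the member with the lowest knockout share of its wild-type mean. Chil1, a chitinase-like secreted glycoprotein made by astrocytes and raised in neuroinflammation, had 2.61, 3.88 and 2.06 FPKM in knockout libraries 1, 2 and 3, against 5.89, 7.47 and 4.38 FPKM in wild-type libraries 1, 2 and 3. All 3 knockout values lay below the lowest wild-type value, and the order of the numbers was the same in both genotypes. The knockout mean was 2.85 ± 0.93 FPKM and the wild-type mean 5.91 ± 1.5 FPKM (SD, n = 3 each), or 48.2%. On the log2(FPKM + 1) scale the fold change was -0.85 (SE 0.22; 95% confidence interval -1.36 to -0.34; adjusted p = 0.79, limma), a scale on which changes of low genes appear smaller than they are. Within pairs 1, 2 and 3 the log2 differences were -0.93, -0.80 and -0.81.

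The lipoprotein genes did not share that difference. Apoe, which encodes the main lipid carrier of the brain and was the most abundant marker, had 1094, 1023 and 878 FPKM in the knockout libraries and 1111, 1023 and 845 FPKM in the wild-type libraries. Clu, which encodes another apolipoprotein, clusterin, had 625, 545 and 589 FPKM in the knockout and 629, 520 and 553 FPKM in the wild type. In both genes the genotypes overlapped fully, with log2 fold changes of 0.011 (95% confidence interval -0.30 to 0.33) and 0.05 (-0.20 to 0.30). Sparcl1, a secreted protein that promotes synapse formation, had 772, 785 and 682 FPKM in the knockout and 842, 750 and 818 FPKM in the wild type, also overlapping. The glypican Gpc5, the bone morphogenetic protein antagonist Chrdl1 and the inter-alpha-trypsin inhibitor chain Itih3 overlapped as well, and their values followed the replicate number, as described below.

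Both gap junction genes were measured. Gja1, which encodes connexin 43, had 65.0, 66.1 and 57.6 FPKM in knockout libraries 1, 2 and 3, against 72.7, 72.8 and 77.3 FPKM in wild-type libraries 1, 2 and 3. No knockout value reached the lowest wild-type value, and the knockout share of the wild-type mean was 84.8% (log2 fold change -0.24; SE 0.089; 95% confidence interval -0.44 to -0.03; adjusted p = 0.79, limma). Gjb6, which encodes connexin 30, had 58.2, 70.2 and 46.0 FPKM in the knockout and 68.8, 52.0 and 51.5 FPKM in the wild type. Knockout libraries held both the highest and the lowest Gjb6 value, and the log2 fold change was 0.009 (95% confidence interval -0.40 to 0.42).

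The channel and adhesion proteins of the perivascular endfoot all had negative log2 fold changes. Aqp4, the water channel of astrocyte endfeet (9 transcripts counted together), had 17.2, 28.4 and 18.3 FPKM in knockout libraries 1, 2 and 3, against 21.2, 43.0 and 38.5 FPKM in wild-type libraries 1, 2 and 3. Wild-type library 1 fell among the knockout values, so the genotypes overlapped, although Aqp4 was lower within every pair. The means were 21.3 ± 6.2 FPKM in the knockout and 34.2 ± 11 FPKM in the wild type (SD, n = 3 each). The log2 fold change was -0.64 (SE 0.30; 95% confidence interval -1.34 to 0.066; adjusted p = 0.79, limma). Mlc1, a membrane protein of the endfoot that controls cell volume, had 48.3, 56.8 and 52.6 FPKM in the knockout and 52.0, 63.3 and 59.0 FPKM in the wild type. It was lower within each pair by small amounts, between -0.10 and -0.16 on the log2 scale. Hepacam, the adhesion partner of Mlc1, had 52.0, 57.6 and 40.2 FPKM in the knockout and 56.9, 54.5 and 50.1 FPKM in the wild type, with no common direction over the pairs.

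Transporters had no common direction. Slc7a10, which exchanges serine and other small neutral amino acids, had 9.84, 15.9 and 9.81 FPKM in knockout libraries 1, 2 and 3, against 14.6, 23.3 and 16.5 FPKM in wild-type libraries 1, 2 and 3. Knockout library 2 exceeded wild-type library 1, so the genotypes overlapped, yet the log2 differences within the pairs were alike at -0.53, -0.52 and -0.70. The log2 fold change was -0.58 (SE 0.23; 95% confidence interval -1.11 to -0.05; adjusted p = 0.79, limma). Slc1a3, the glutamate transporter GLAST, which is abundant in the Bergmann glia of the cerebellum, had 139, 211 and 178 FPKM in the knockout and 128, 130 and 158 FPKM in the wild type. Knockout library 2 was the highest and knockout library 1 lay below wild-type library 3, so the genotypes overlapped. The log2 fold change of Slc1a3 was 0.33 (SE 0.16, 95% confidence interval -0.048 to 0.71, adjusted p = 0.79, limma). It was 0.19 without knockout library 2, the library with the high cerebellar granule cell markers. Within pairs 1, 2 and 3 the log2 differences of Slc1a3 were 0.13, 0.69 and 0.17. The part of cerebellar tissue in these values was not tested. Slc1a2, the main forebrain glutamate transporter GLT-1, differed by 0.0024 on the log2 scale (95% confidence interval -0.49 to 0.50). The bicarbonate cotransporter Slc4a4, the sodium pump subunit Atp1b2 and the urea transporter Slc14a1 overlapped between genotypes, with log2 fold changes of 0.0064, -0.084 and -0.018.

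Of the receptors and transcription regulators, Id3 and Ntsr2 separated the genotypes as deposited. Ntsr2, a neurotensin receptor of astrocytes, had 68.1, 86.6 and 66.3 FPKM in knockout libraries 1, 2 and 3, against 87.7, 105.8 and 91.2 FPKM in wild-type libraries 1, 2 and 3. The gap was narrow, since knockout library 2 lay just under wild-type library 1, and it closed when every library was scaled to the same total. Its log2 fold change was -0.37 (SE 0.13; 95% confidence interval -0.67 to -0.065; adjusted p = 0.79, limma). Id3, an inhibitor of basic helix-loop-helix factors that is also expressed by endothelium, had 19.4, 17.5 and 19.8 FPKM in the knockout and 21.8, 24.6 and 23.6 FPKM in the wild type. Here the 3 knockout values were close together and all lay below the wild type (log2 fold change -0.29; SE 0.088; 95% confidence interval -0.50 to -0.083; adjusted p = 0.79, limma). The glial transcription factor Sox9 had 7.49, 9.15 and 8.94 FPKM in the knockout and 8.92, 7.81 and 9.96 FPKM in the wild type, which overlapped. Fgfr3, a fibroblast growth factor receptor, had the narrowest interval among the 5, -0.22 to 0.18 around a log2 fold change of -0.02. F3, the coagulation tissue factor, had 37.0, 39.6 and 25.2 FPKM in the knockout and 35.7, 31.98 and 28.7 FPKM in the wild type, again overlapping.

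The metabolic genes all overlapped between genotypes, and all 5 log2 fold changes were negative. Glul, the glutamine synthetase gene, had 634, 764 and 591 FPKM in the knockout libraries and 760, 754 and 671 FPKM in the wild-type libraries. Aldoc, the brain aldolase of glycolysis, had 314, 531 and 327 FPKM in the knockout and 406, 425 and 368 FPKM in the wild type. For Aldoc, knockout library 2 was the highest of the 6 and the other 2 knockout libraries were the lowest. Ndrg2, an astrocyte protein of the NDRG family, showed the same order, with 345, 448 and 345 FPKM in the knockout and 398, 384 and 432 FPKM in the wild type. Aldh1l1, a cytosolic folate enzyme used as a general astrocyte marker, had 17.3, 22.6 and 19.4 FPKM in the knockout and 19.0, 20.4 and 19.8 FPKM in the wild type, with a log2 fold change of -0.0066. Ppp1r3c, which targets a phosphatase to glycogen, was lower within each pair, at 16.1, 13.3 and 10.6 FPKM in the knockout and 16.2, 16.5 and 14.7 FPKM in the wild type. Its log2 fold change was -0.25 (95% confidence interval -0.58 to 0.086), which was -0.39 without knockout library 1, -0.10 without knockout library 3 and -0.11 with array weights.

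**Figure D3:**
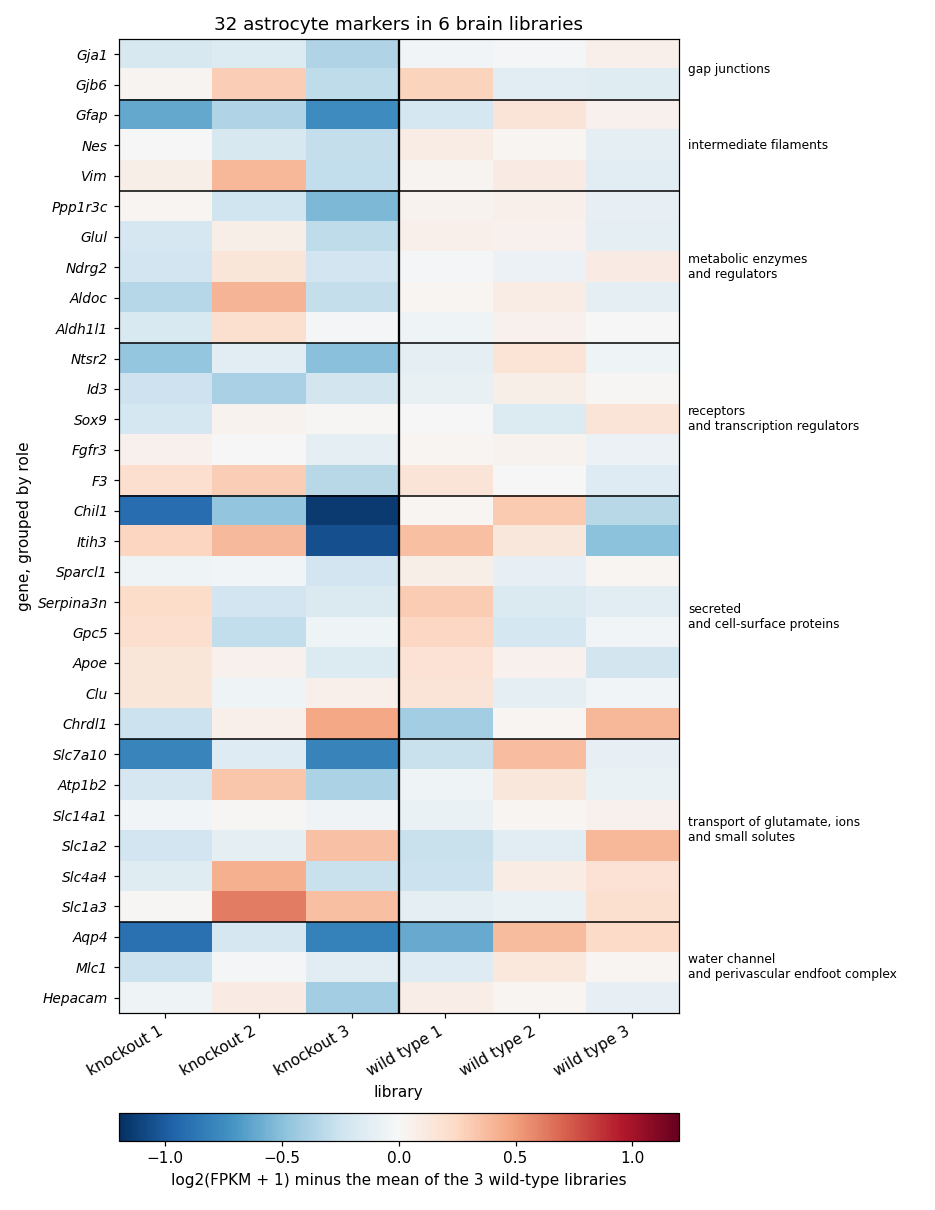
Log2(FPKM + 1) of each of the 32 astrocyte markers minus the mean of the 3 wild-type libraries, with knockout libraries left of wild-type libraries and genes grouped by role; blue is lower and red higher. Gfap, Chil1, Slc7a10 and Aqp4 are blue in all 3 knockout columns, knockout library 2 is the reddest for Slc1a3, Aldoc and Slc4a4, and Slc1a2, Chrdl1 and Itih3 show the same colour in libraries 3 of both genotypes.

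The markers spanned a wide range of level. Mean FPKM over the 6 libraries ran from 1.59 for Nes to 996 for Apoe, with a median of 34.0 against 10.9 over all genes tested. Above 100 FPKM there were 9 markers, in order Apoe, Sparcl1, Glul, Clu, Aldoc, Ndrg2, Atp1b2, Slc1a2 and Slc1a3. Aldoc and Ndrg2 (395 and 392.2 FPKM) and Atp1b2 (379 FPKM) were closer to each other than their libraries were. Under 10 FPKM were Sox9, Chil1, Slc14a1, Chrdl1 and Nes. Markers without overlap between genotypes were all below 100 FPKM. Ntsr2, Gja1 and Gfap, at 84.3, 68.6 and 66.4 FPKM, lay above the marker median of 34.0. Id3 and Chil1, at 21.1 and 4.38 FPKM, lay below it.

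Many markers varied more with the replicate number than with genotype. Of the variation in log2(FPKM + 1) over the 6 libraries, the number took a median of 58.6% and genotype a median of 5.37% over the 32 markers, against 55.2% and 14.6% over all genes tested. The number has 3 levels and genotype 2, so without any effect the number would still tend to take the larger share. The number took the larger part in 24 of the 32 markers, against 75.2% of all genes. In 5 markers the number took over 95% of the variation, against 3.29% of all genes: Slc1a2, Apoe, Gpc5, Serpina3n and Chrdl1. Slc1a2 had 204, 221 and 304 FPKM in knockout libraries 1, 2 and 3, against 199, 218 and 314 FPKM in wild-type libraries 1, 2 and 3. Both libraries numbered 3 were high, while the genotypes differed by at most 0.049 within a pair on the log2 scale. Chrdl1 showed the same order at a low level, with 1.83, 2.53 and 3.66 FPKM in the knockout and 1.53, 2.44 and 3.47 FPKM in the wild type. Gpc5 had 18.5, 12.9 and 15.4 FPKM in the knockout and 19.2, 13.7 and 15.6 FPKM in the wild type, highest in both libraries numbered 1. Itih3 was lowest in both libraries numbered 3, with 28.4, 31.2 and 10.9 FPKM in the knockout and 30.6, 26.0 and 16.5 FPKM in the wild type. What the numbers mark is not given in the labels.

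**Figure D4:**
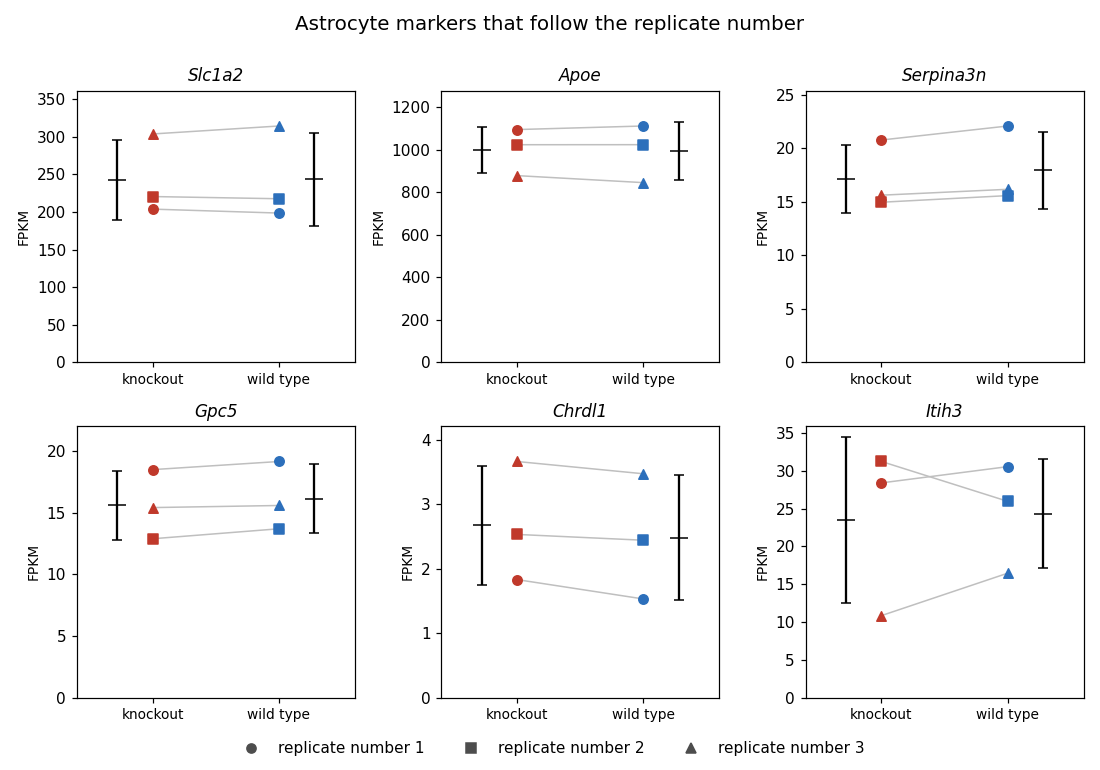
FPKM of 6 astrocyte markers in knockout libraries (left) and wild-type libraries (right), with 1 symbol per replicate number, grey lines between libraries of the same number and black bars for the mean ± SD (n = 3 each). For Slc1a2, Apoe, Serpina3n, Gpc5 and Chrdl1 the lines are nearly flat and the numbers keep their order in both genotypes; Itih3 is lowest in both libraries numbered 3.

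Markers of other cells and regions varied with the numbers and with single libraries, and their part in the astrocyte values was not tested. The 6 cortical and hippocampal excitatory neuron markers had levels of 0.097, -0.16 and 0.47 in knockout libraries 1, 2 and 3, against -0.023, -0.25 and 0.27 in the wild-type libraries (median log2(FPKM + 1) minus the wild-type mean). Both libraries numbered 3 were thus the highest in this list, as they were in Slc1a2 and Chrdl1. The 6 striatal neuron markers had 0.042, 0.71 and -0.58 in the knockout and -0.38, 1.08 and -0.74 in the wild type, highest in both libraries numbered 2. The 6 cerebellar granule cell markers had -0.021, 2.69 and -0.52 in the knockout and -0.029, 0.38 and -0.37 in the wild type. Knockout library 2, the highest there, was also the highest of the 3 knockout libraries for 22 of the 32 astrocyte markers, against 36.7% of all genes. The 4 Bergmann glia markers, the astrocytes of the cerebellar cortex, were likewise highest in knockout library 2 (-0.18, 0.89 and -0.24 in the knockout, against -0.056, 0.14 and -0.056 in the wild type).

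The 10 oligodendrocyte markers had a median level below every wild-type library in each knockout library, at -0.31, -0.31 and -1.72 in knockout libraries 1, 2 and 3, against -0.11, 0.16 and -0.047 in the wild-type libraries. Of the 10, 8 had no overlap between genotypes, all lower, against 11.9% of all genes (6.43% lower). An unadjusted p below 0.05 was found for 1, against 6.05% of all genes, and 0 passed after adjustment. Their summed FPKM ran from 2092 to 5626 in the knockout and from 6347 to 7591 in the wild type. The 7 thalamic neuron markers had 0.19, -0.38 and -1.02 in the knockout and 0.17, -0.18 and -0.06 in the wild type. Knockout library 3, the lowest in both lists, was also the lowest of all 6 libraries for 17 of the 32 astrocyte markers, against 25.3% of all genes. Without it, the log2 fold change of Gfap was -0.49 and that of Chil1 -0.70, against -0.58 and -0.85 with all 6 libraries. The 8 microglia markers were all lower on average, with sums of 125 to 160 FPKM in the knockout and 143 to 188 FPKM in the wild type. The 6 oligodendrocyte precursor markers summed to 85.4 to 117 FPKM in the knockout and 122.8 to 204 FPKM in the wild type. Bcas1 alone averaged 48.9 FPKM in the knockout and 97.7 FPKM in the wild type. Within all 3 pairs, 4 of the 6 were lower and 2 were higher, against 20.5% and 19.5% of all genes. An unadjusted p below 0.05 in limma was found for 4, all lower (3.69% of all genes lower). No overlap was found for 3, all lower (6.43% of all genes lower), and 0 passed after adjustment. The 7 endothelial markers, from cells that share Vim and Id3, summed to 121 to 139 FPKM in the knockout and 116 to 146 FPKM in the wild type. The 5 ependymal markers measured, from cells that share Vim, summed to 10.5 to 15.5 FPKM in the knockout and 11.5 to 21.7 FPKM in the wild type. No marker in these lists of other cells and regions was at 0 in any library.

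**Figure D5:**
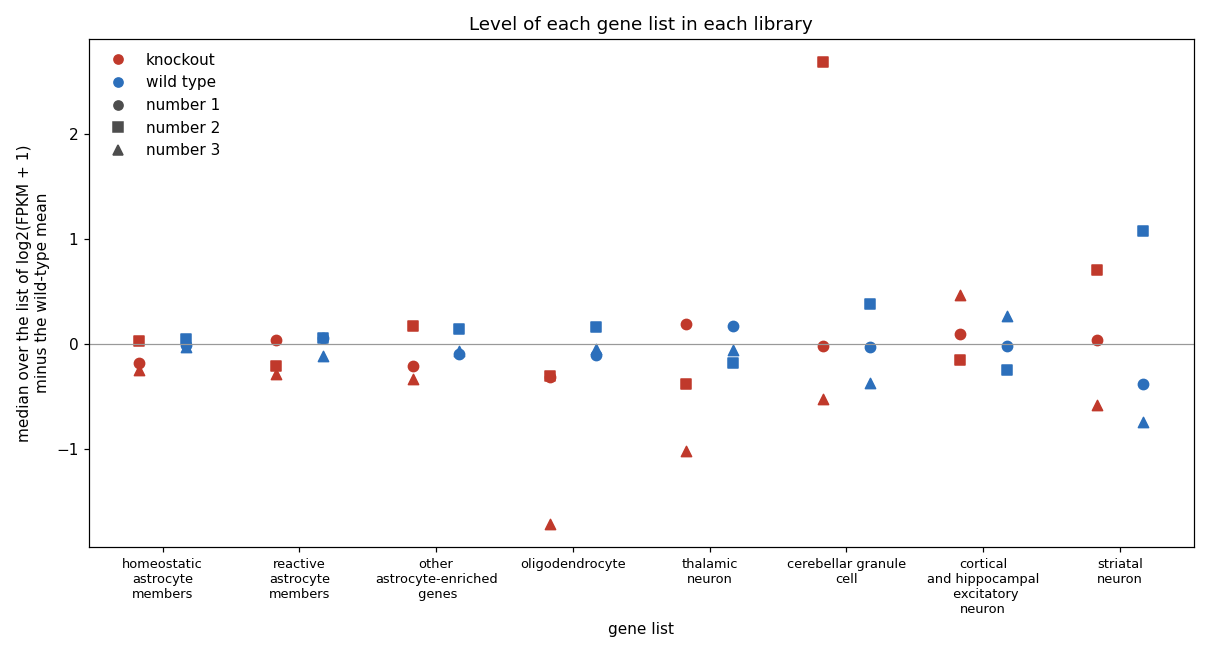
Median over each gene list of log2(FPKM + 1) minus the wild-type mean, for knockout libraries (left of each pair) and wild-type libraries (right), with 1 symbol per replicate number. Knockout library 2 stands out in cerebellar granule cell markers at 2.69 and knockout library 3 in oligodendrocyte markers at -1.72, while the homeostatic and reactive astrocyte markers stay between -0.29 and 0.06.

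Other genes enriched in astrocytes, a list of 30 that excludes the 32 markers, gave 20 negative and 10 positive log2 fold changes with a median of -0.15. Of the 30, 2 had an unadjusted p under 0.05, both lower, against 6.05% of all genes (3.69% lower). No overlap was found for 2 of the 30, both lower, against 11.9% of all genes (6.43% lower), and 0 passed after adjustment. Slc25a18, a mitochondrial glutamate carrier, had 33.9, 35.1 and 30.1 FPKM in knockout libraries 1, 2 and 3, against 40.0, 50.9 and 38.7 FPKM in wild-type libraries 1, 2 and 3, with no overlap. Kcnj10, the inward-rectifier potassium channel Kir4.1 of astrocytes and oligodendrocytes, had 38.1, 57.9 and 24.6 FPKM in the knockout and 51.1, 97.2 and 84.8 FPKM in the wild type. The Kcnj10 values overlapped but were lower within each pair, as those of Aqp4 were. Plcd4, a phospholipase C gene, had 5.95, 8.05 and 5.67 FPKM in the knockout and 7.71, 9.23 and 7.60 FPKM in the wild type.

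Reactive astrocyte genes outside the 32 markers were read in 3 lists. Of 10 genes induced in many reactive states, 6 were tested, and their median log2 fold change was 0.25 with 1 negative and 5 positive. The median level of these 6 was 0.32, 0.10 and 0.13 in knockout libraries 1, 2 and 3. In the wild-type libraries it was 0.044, -0.11 and -0.025 (log2(FPKM + 1) minus the wild-type mean). Every knockout level thus lay above every wild-type level, a difference that was not tested. No overlap between genotypes was found for 2 of the 6, 1 lower and 1 higher, against 11.9% of all genes (6.43% lower and 5.48% higher). Hspb1, a small heat shock protein, had 7.26, 7.67 and 6.35 FPKM in the knockout and 9.95, 11.8 and 10.1 FPKM in the wild type, the 1 gene of that list with an unadjusted p under 0.05. Cd44, a hyaluronan receptor, was on the other side, at 1.62, 1.42 and 2.15 FPKM in the knockout and 1.18, 1.30 and 1.26 FPKM in the wild type, with no overlap. Lcn2, the iron-binding lipocalin often taken as a sign of strong reactivity, had 14.3, 21.4 and 6.34 FPKM in the knockout and 7.36, 2.09 and 9.03 FPKM in the wild type, which overlapped. Of 12 genes induced by neuroinflammation, 11 were tested with a median of 0.16 (3 negative and 8 positive). Of 12 induced by ischaemia, 5 were tested with a median of -0.019 (4 negative and 1 positive). In both lists 0 genes reached an unadjusted p below 0.05, against 6.05% of all genes. No gene of the 3 reactive lists passed after adjustment in limma.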

How the data were processed

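RNA sequencing of 6 brain samples was analysed, grouped by the genotype in the labels and numbered by the sample titles. The labels' protocols describe Trizol extraction, capture on oligo(dT) beads, fragmentation and random hexamer priming. The deposited values are FPKM per gene, per the file headers, with 2 decimals. Bowtie2, RSEM and mm10 are named in the submitters' processing notes, while their versions, the annotation, filters and strand were not found in the sources used here. Whole reads were not recovered, so no count model was run.

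The 12885 genes averaging 1 FPKM or more were tested with limma 3.58.1 (R 4.3.3; trend and robust prior, 2-sided, Benjamini-Hochberg, threshold 0.05) on log2(FPKM + 1), after a test on simulated data. Tables and figures used Python 3.11.15, SciPy 1.17.1 and matplotlib 3.10.9. All 32 members were named; outside them Mettl5, up to 3 genes of lowest p per astrocyte list and the 2 most abundant of other cell lists could be named. Members and lists were chosen with earlier results of these data known.

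Deviations from group means correlated across genes between same-numbered libraries (0.485, 0.413 and 0.539), all above 0.1, so the numbers were taken as pairs; the labels do not say what they mark. Gene coordinates and upstream sequences are RefSeq GRCm38.p6. Dnah12 of the ependyma list was not analysed here.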

Additional observations from a re-analysis of the deposited data

How the results depend on the processing

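Of 13 alternatives refitted for each marker, 3 leave the fold change itself as it is (no filter, the replicate block, and no trend or robust prior). Under the other 10, 14 of the 32 markers kept the sign of their log2 fold change, among them Gfap (-0.68 to -0.49), Chil1 (-1.04 to -0.69), Id3 (-0.33 to -0.24), Ntsr2 (-0.49 to -0.29), Gja1 (-0.27 to -0.18), Slc7a10 (-0.80 to -0.40), Aqp4 (-0.94 to -0.45) and Slc1a3 (0.19 to 0.49). Of 320 marker values under these 10, 49 had the opposite sign, spread over 18 markers whose log2 fold changes lay between -0.13 and 0.086, and the cause was not tested. No marker passed adjustment in limma under any of the 13, with 0.285 as the lowest adjusted p. With a common sum per library the values of opposite sign were 0.021 for Aldh1l1, 0.0084 for Fgfr3 and 0.0037 for Slc14a1, and under quantile normalization 0.00027 for Aldh1l1. Array weights gave -0.097 for Slc1a2, -0.059 for Slc4a4, 0.012 for Fgfr3, 0.089 for Gpc5, -0.084 for Chrdl1, 0.061 for Itih3 and 0.0895 for Serpina3n. Leaving out 1 library at a time gave ranges of log2 fold change that crossed 0, as follows. Ranges were Aldh1l1 -0.10 to 0.082, Aldoc -0.32 to 0.062, Apoe -0.10 to 0.10, Atp1b2 -0.29 to 0.065, Chrdl1 -0.12 to 0.29 and Clu -0.0104 to 0.13. They were F3 -0.063 to 0.25, Fgfr3 -0.055 to 0.0299, Gjb6 -0.14 to 0.16, Gpc5 -0.17 to 0.075, Hepacam -0.23 to 0.025 and Itih3 -0.40 to 0.32. The last were Serpina3n -0.20 to 0.089, Slc14a1 -0.056 to 0.0097, Slc1a2 -0.17 to 0.20, Slc4a4 -0.21 to 0.14, Sox9 -0.13 to 0.027 and Vim -0.11 to 0.23. In the same refits 3 to 9 markers had an unadjusted p below 0.05 and 6 to 11 had no overlap, and no overlap is easier to reach with 5 libraries. The homeostatic median ran from -0.20 to -0.042, the reactive one from -0.22 to -0.020 and their difference from -0.076 to 0.16. Genes called over the whole table ran from 0 to 1 in these refits (Rps27rt without wild-type library 3), and 1 was called with no filter on low values (Hist2h2aa2); both were named after their values were seen. Rescaling to a common sum moved the split of genes at an unadjusted p below 0.05 to 430 higher of 807, against 305 higher of 780.

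With the replicate number as a block, the count of markers at an unadjusted p below 0.05 was 9 against 6 without it, and for all genes 1842 against 780. The block changed no adjusted call. Depth is unknown, so counting error could not be separated from the spread between libraries.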
